A study of Mus musculus with 6 samples.

Results

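Chaperones and folding enzymes of the endoplasmic reticulum (ER), the sensors and transcription factors of the unfolded protein response, and the genes of ER-associated degradation were compared between cultured macrophages of wild-type (WT) mice and of mice lacking Bach1 (Bach1 KO), a heme-binding transcriptional repressor. The 37 genes were chosen by name, with earlier results of these data known, and each was read from 1 array probe, the one with the highest mean signal over all arrays. Rnf183 joined the list after its rise in KO had been seen, and Pdia4 was known to have risen too. All 37 had a probe among the 20018 genes named on the array, and 36 of them were among the 15736 genes tested. The exception was Dnajb11, whose single probe was not well above background on any array. Cells were grown from C57BL/6 bone marrow for 5 days in medium with 10% fetal bovine serum and GM-CSF, the granulocyte and macrophage growth factor, at 10 ng/mL (37 °C, 5% CO2). Each genotype was represented by 3 independent mice, aged 11 weeks, with 2 males and 1 female in each, and 1 single-colour array was run per mouse. The WT mice are WT 1, 2 and 3, with WT 3 female, and the KO mice carry the labels 947, 948 and 949, with KO 949 female. The labels do not say how the Bach1 allele was disrupted or whether the mice were littermates.

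The unfolded protein response matches the folding capacity of the ER to its load of secretory and membrane proteins. Its sensors are the kinase and ribonuclease IRE1 (Ern1), which splices Xbp1 messenger RNA, the membrane-bound factor ATF6, which is cleaved to release a transcription factor, and the kinase PERK (Eif2ak3), which slows translation and raises ATF4. XBP1 and ATF6 induce chaperones, disulfide isomerases and degradation factors, whereas ATF4 induces genes of amino acid supply, redox control and, through CHOP (Ddit3), cell death. Macrophages carry a large secretory load, and XBP1 is also known for its part in their cytokine responses. The arrays measure total transcript of a gene and show neither Xbp1 splicing nor ATF6 cleavage nor phosphorylation of PERK.

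The ER stress response element (ERSE), CCAAT and CCACG separated by 9 bases, is the site through which ATF6 acts together with NF-Y. It is shown because it can be set beside the members' values. The element was first described in promoters of such genes, so its frequency among them is a description and no independent evidence. RefSeq promoter windows (GRCm38.p6, 250 bases before to 50 after each annotated start) were found for 33 of the 37 members. The ERSE was searched as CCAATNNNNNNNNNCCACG on both strands, and 9 of these 33 members (27.3%) held it, against 0.137% of 27025 genes. Put the other way, 37 genes in all held the element and 9 of them (24.3%) were members. The 10 elements of the members lay between 26 and 212 bases before the start, 6 in the direction of the gene and 4 against it. They are listed with the 5 bases at either end in capitals, each in the direction that puts CCAAT first, with the strand of the printed letters.

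Hspa5 (chr2:34772025-34772043, + strand): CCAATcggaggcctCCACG
Hsp90b1 (chr10:86705638-86705656, - strand): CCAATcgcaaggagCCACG
Hsp90b1, the second element (chr10:86705533-86705551, + strand): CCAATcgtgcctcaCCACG
Calr (chr8:84847075-84847093, + strand): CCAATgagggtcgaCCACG
Canx (chr11:50325800-50325818, - strand): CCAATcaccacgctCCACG
Pdia6 (chr12:17266491-17266509, + strand): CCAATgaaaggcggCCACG
Dnajc3 (chr14:118937827-118937845, + strand): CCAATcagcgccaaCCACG
Creld2 (chr15:88819520-88819538, - strand): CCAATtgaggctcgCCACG
Syvn1 (chr19:6046532-6046550, + strand): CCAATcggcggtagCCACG
Derl3 (chr10:75893242-75893260, - strand): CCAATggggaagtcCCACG

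The related ERSE-II, ATTGGNCCACG, which joins the same half-sites in another arrangement, was found in Herpud1 and Dnajb11 (2 of 33 members, against 0.0444% of all genes). In Herpud1 it lay at bases -52 to -42 from the start (chr8:94386377-94386387, + strand) and read ATTGGgCCACG. The XBP1 element TGACGTGG was found in Txndc5 alone among the members (0.714% of all genes). The ATF4 element TGATGNAAT (1.08% of all genes) and TGCTGANTCA, the Maf-type element to which Bach1 binds (0.492%), were in no member's window. All were searched on both strands as these exact letters, and sites that differ from them in any base were not searched for. A lack of these letters in a window of 300 bases says nothing about such sites or about binding elsewhere.

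The promoters of Hspa5, the most used reference gene of the response, and of Pdia4, the chaperone branch gene that rose, are printed over the 250 bases before the start. Capitals mark the half-sites of an exact ERSE, which the search found in the first and not in the second. Variants of the element with other letters in a half-site were not searched for, in these or in the other windows.

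Hspa5 (chr2:34771840-34772089, + strand): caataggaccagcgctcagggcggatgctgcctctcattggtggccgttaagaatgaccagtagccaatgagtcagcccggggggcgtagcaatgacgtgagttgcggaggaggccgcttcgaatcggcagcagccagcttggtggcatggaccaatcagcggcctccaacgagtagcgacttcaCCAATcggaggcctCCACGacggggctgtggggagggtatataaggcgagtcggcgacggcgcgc
Pdia4 (chr6:47813513-47813762, - strand): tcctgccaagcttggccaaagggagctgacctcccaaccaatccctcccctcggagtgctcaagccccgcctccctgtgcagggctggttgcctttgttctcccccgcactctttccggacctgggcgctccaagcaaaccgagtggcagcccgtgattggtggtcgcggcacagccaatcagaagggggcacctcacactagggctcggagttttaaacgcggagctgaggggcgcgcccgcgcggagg

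WT 1, 2 and 3 and KO 947 shared a slide, and KO 948 and 949 lay on another, so that in a fit with the slide as a term (the slide-blocked fit) KO 947 alone sets the contrast. Between 70.3% and 73.2% of spots were well above background on the WT arrays and between 62.5% and 65.1% on the KO arrays, with no saturated spot. The Bach1 probe itself differed by -0.54 ± 0.24 (KO minus WT on the log2 scale, SE, n = 3 per genotype; adjusted p = 0.262), and it checks no label, since the labels do not place it inside or outside the disrupted part of Bach1. Hmox1, the classical target that Bach1 represses, rose in KO by 2.14 ± 0.25 (adjusted p = 0.0114). All 10 macrophage markers with a probe were well above background on every array. In KO 7 of them were higher and 3 lower, and the 3 that rose past the threshold were Marco, Mrc1 and Msr1. The log2 of the summed signal of the 10 was 8.57 to 8.85 in WT and 9.20 to 9.30 in KO. Such a sum mostly follows the brightest markers of a list. Marco had a mean of 5.72 in WT and 7.62 in KO. All 13 tested dendritic cell markers were lower in KO (4 fell; 8.45 to 8.64 in WT and 7.86 to 8.03 in KO), as were 12 of 13 granulocyte markers (1 fell; 8.20 to 8.54 and 7.60 to 7.92). Stromal markers (3 of 8 fell; 3.45 to 5.36 and 2.04 to 2.54, with Lum not well above background on any array) and markers of mast cells, basophils and eosinophils (3 of 11 fell; 4.49 to 5.72 and 0.51 to 4.25, with Ms4a2 likewise) were also lower. The part of these cells in the results on the ER genes was not tested. In such bulk cultures fewer cells of a type and less RNA per cell cannot be told apart.

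Most ER folding and stress genes lay close together in the 2 genotypes. Levels are log2 processed signal relative to each array's 75th percentile, differences are KO minus WT on that scale, and errors are SE with n = 3 mice per genotype. Rnf183, listed for its rise and past the filter only through its KO arrays, is left out of the counts that follow. Of the other 35 tested members, 1 was called higher in KO (Pdia4, limma, adjusted p under 0.05) and 0 lower. Of all genes tested, 1.14% were called higher and 2.27% lower, 3.41% in all, and nothing is read from the members' count, since the rise of Pdia4 was known. At p under 0.05 before adjustment, 6 of the 35 were higher and 2 lower, against 8.87% and 11.6% of all genes (20.4% in all). The median difference of the 35 was 0.06 (-0.0062 over all genes tested), and 23 were above 0. For 29 of the 35 the 95% interval of the difference lay within 1 log2 unit, a 2-fold change, on either side of 0, as it did for 68.0% of all genes. In 8 members every KO array lay above every WT array (13.4% of all genes), and in 2 every KO array lay below (13.5%). In the slide-blocked fit none of the 35 passed, and 84 genes did (0.534%). Before adjustment 3 of the 35 had a p under 0.05 in that fit, against 18.0% of all genes.

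**Figure D1:**
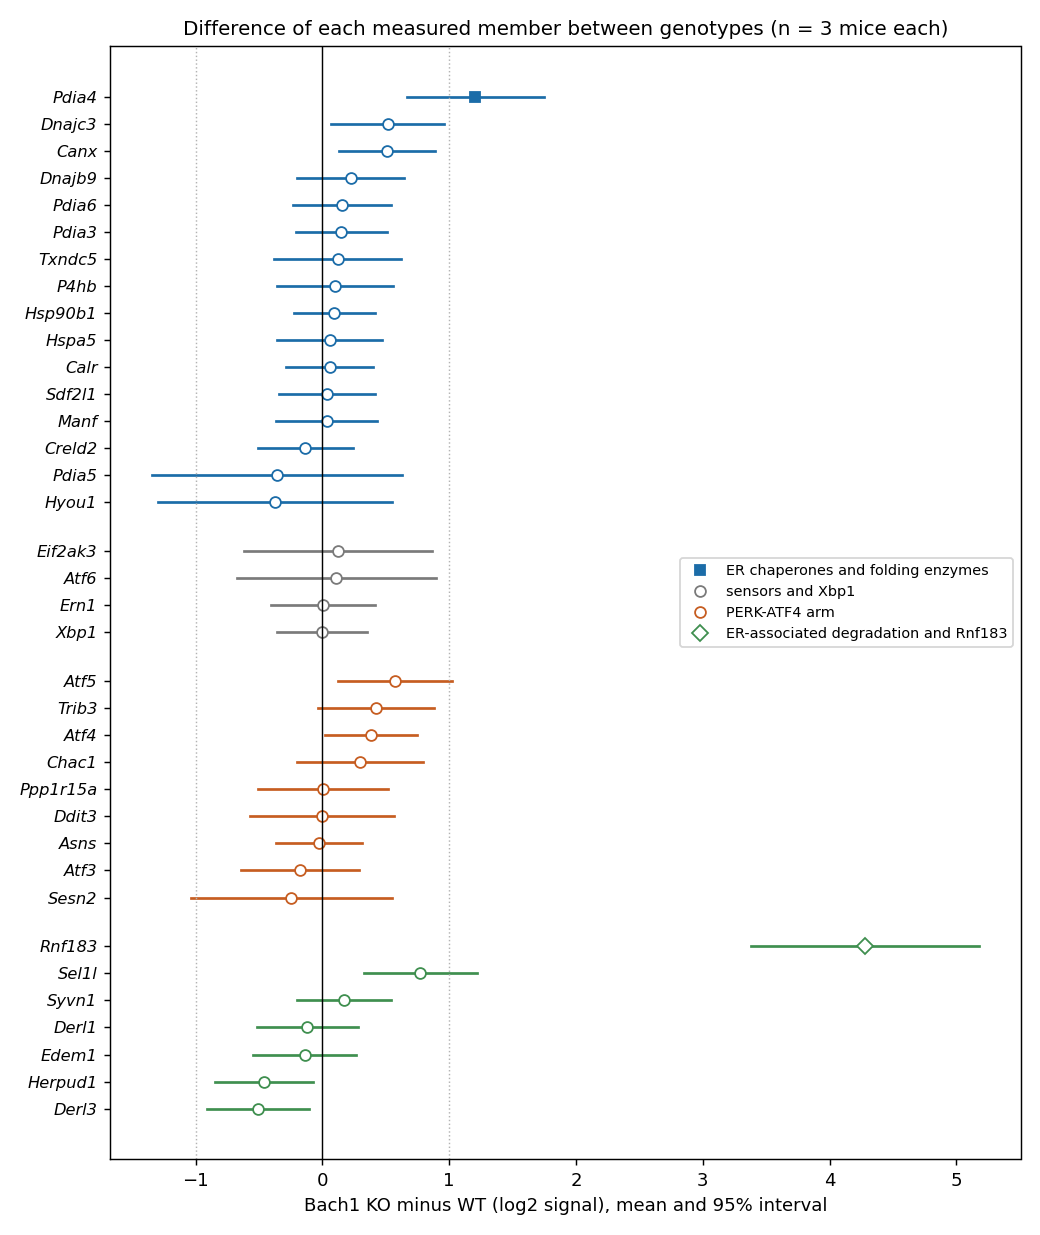
Difference of each of 36 members between Bach1 KO and WT on the log2 scale (x axis), grouped by branch (colour), with the mean as a point and limma's 95% interval as a line; the filled square is Pdia4, past an adjusted p of 0.05, the diamond is Rnf183, shown as a description, and dotted lines mark 1 log2 unit. Most intervals cross 0 and stay within the dotted lines, Pdia4 lies at 1.21, and Rnf183 lies apart at 4.28.

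The sensors and Xbp1 did not differ beyond their spread, with 0 of 4 called and 0 at p under 0.05 before adjustment. Xbp1, the factor activated by IRE1, read 5.76, 5.83 and 5.51 in WT 1, 2 and 3, against 5.65, 5.71 and 5.73 in KO 947, 948 and 949. The KO arrays lay inside the WT range, and the difference was -0.0055 ± 0.15 (95% interval -0.36 to 0.35, adjusted p = 0.990). Ern1 differed by 0.0050 ± 0.17 (-0.41 to 0.42). The intervals were wider for Atf6 (0.11 ± 0.33, -0.68 to 0.90) and for Eif2ak3 (0.12 ± 0.31, -0.62 to 0.87), both of which varied within each genotype. Eif2ak3 read 1.5 in KO 947 but 2.26 and 2.68 in KO 948 and 949, and 2.02, 2.25 and 1.80 in WT, so that KO arrays lay on both sides of the WT arrays. Its difference was -0.53 in the slide-blocked fit (adjusted p = 0.366). Atf6 read -0.24, -0.09 and 0.71 in WT, against 0.75, 0.09 and -0.13 in KO, so that 1 array of each genotype stood above the rest.

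Of the lumenal chaperones of the Hsp70 and Hsp90 families none passed. For Hspa5 and Hsp90b1 the 95% interval of the difference lay within 1 log2 unit on either side of 0. Hspa5, which encodes BiP, the Hsp70 chaperone that holds the sensors inactive, read 6.52, 6.40 and 6.54 in WT, against 6.25, 6.63 and 6.75 in KO 947, 948 and 949. The KO arrays spanned the WT arrays, with a difference of 0.06 ± 0.17 (adjusted p = 0.883), and the interval ran from 0.781-fold to 1.39-fold. In the slide-blocked fit the Hspa5 difference was -0.23. Hsp90b1, which encodes the Hsp90 paralogue GRP94 that folds integrins and Toll-like receptors, had a difference of 0.09 ± 0.13 (0.855-fold to 1.33-fold). Hyou1, a nucleotide exchange factor of BiP, was read by a dim probe that was well above background on 3 WT arrays and on 1 KO array. It read -4.50, -5.38 and -4.78 in WT, against -4.48, -5.80 and -5.52 in KO, with KO arrays on both sides of the WT arrays. Its difference of -0.38 ± 0.39 turned to 0.41 in the slide-blocked fit, so its direction was not settled. The lectin chaperones hold newly made glycoproteins. Calr, the soluble calreticulin, differed by 0.06 ± 0.14. Canx, the membrane-anchored calnexin, read 4.79, 4.82 and 4.95 in WT, against 5.22, 5.27 and 5.59 in KO. All KO arrays were above all WT arrays, but the difference of 0.51 ± 0.16 (1.42-fold, 95% interval 1.09-fold to 1.85-fold) did not pass (adjusted p = 0.143).

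Among the 6 protein disulfide isomerases, which form and rearrange disulfide bonds, Pdia4 rose and the other 5 did not pass. Pdia4, also known as ERp72, read -0.96, -0.49 and -1.02 in WT 1, 2 and 3, against 0.74, 0.20 and 0.21 in KO 947, 948 and 949. Every KO array lay above every WT array, and KO 947 was the highest. The difference was 1.21 ± 0.23, or 2.31-fold (95% interval 1.59-fold to 3.36-fold, adjusted p = 0.0442). In the slide-blocked fit it was 1.56 and did not pass (adjusted p = 0.0702), and the call was lost when any 1 array other than KO 947 was left out (adjusted p of 0.150, 0.0692 and 0.112 without WT 1, 2 and 3, 0.112 without KO 948 and 0.0961 without KO 949). Without KO 947 the difference was 1.03 and the call stood (adjusted p = 0.0497). P4hb, the founding disulfide isomerase, read 5.71, 5.88 and 5.53 in WT, against 6.12, 5.64 and 5.66 in KO, so that KO 947 alone lay above the WT arrays (0.10 ± 0.19). The same array was the highest of the 6 for Pdia3 (4.65), Pdia6 (5.96) and Txndc5 (2.12), whose differences were 0.15 ± 0.15, 0.15 ± 0.16 and 0.12 ± 0.21. In the slide-blocked fit, where KO 947 stands alone, P4hb, Pdia3, Pdia6 and Txndc5 differed by 0.41, 0.31, 0.39 and 0.54, and none passed. A second Pdia6 probe differed by 0.38, in the same direction. Pdia5 had the widest interval of the 6, and ran from 0.02 to 1.19 in WT and from -0.43 to 0.84 in KO (-0.36 ± 0.42).

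The J proteins stimulate BiP's ATPase, and of the 3 tested genes of this group, Sdf2l1 included, none passed. Dnajc3, which encodes p58IPK, a J protein known to restrain PERK, read 0.73, 1.27 and 1.22 in WT, against 1.64, 1.59 and 1.54 in KO. Its KO arrays lay close together above all 3 WT arrays, with a difference of 0.51 ± 0.19 that did not pass (adjusted p = 0.186). Dnajb9, which represses IRE1 through BiP, differed by 0.22 ± 0.18 on its main probe and by -0.53 on its other probe, so the 2 probes disagree on direction. Sdf2l1, a partner of ERdj3, differed by 0.03 ± 0.16. The Dnajb11 probe, for ERdj3 itself, read -7.91, -8.09 and -5.62 in WT, against -7.65, -7.37 and -7.66 in KO, where the genotypes overlap, none of these arrays being well above background. The proteins secreted under ER stress, Creld2 and Manf, differed by -0.13 ± 0.16 and 0.03 ± 0.17.

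In the plot of ERSE positions, the genes that carry the element are set beside their differences. None of the 9 ERSE carriers was called (3.41% of all genes tested were), and 7 of them were above 0 (7742 of all 15736 genes tested were). Their median difference was 0.09, with a range from -0.51 (Derl3) to 0.51 (Dnajc3). The 23 tested members with a promoter window and no exact match to the ERSE had a median of 0.10. Pdia4 and Rnf183 were among them, and since their rise was known beforehand, nothing is read from where the calls fell. For Hspa5 and Hsp90b1, whose elements are printed above, the differences were within 0.10 of 0.

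**Figure D2:**
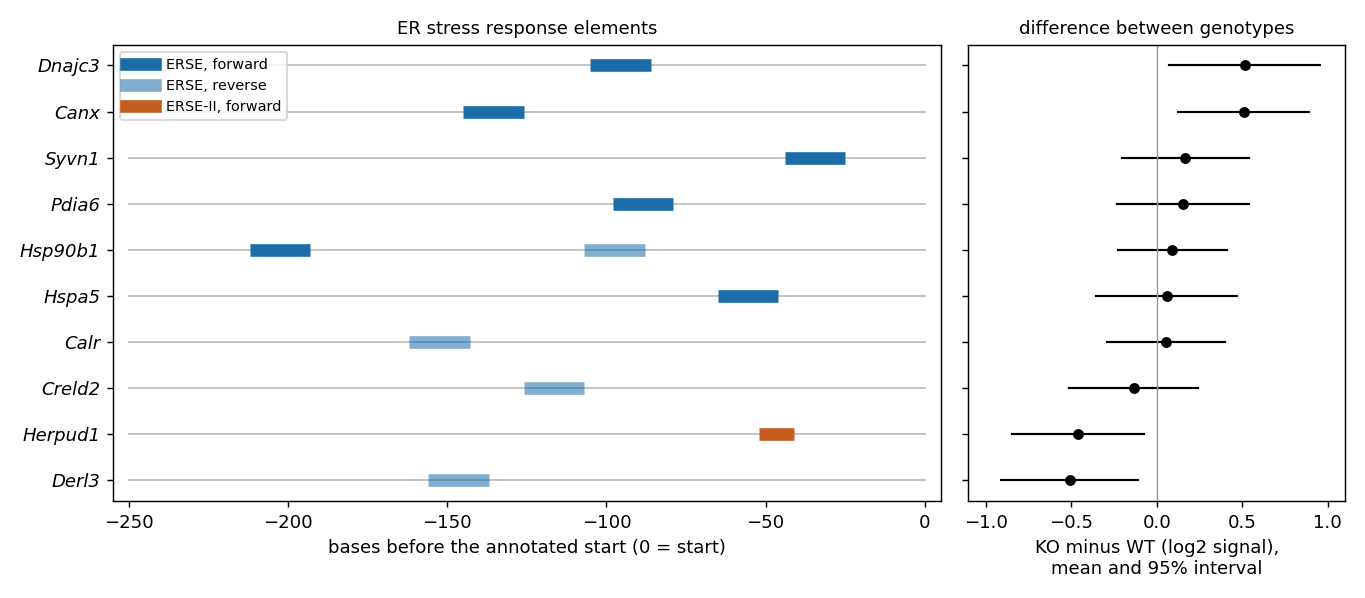
Left, position of each ERSE (blue; pale where it runs against the gene) and of the ERSE-II of Herpud1 (orange) in the bases before the annotated start; the ERSE-II of Dnajb11 lies after the start and is not drawn. Right, difference of the same gene between KO and WT on the log2 scale with its 95% interval; Dnajc3 and Canx lie at 0.51, Herpud1 and Derl3 at -0.46 and -0.51, and the others nearer to 0.

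The genes of ER-associated degradation lay on both sides of 0 and none of the 6 passed, with Sel1l higher and Herpud1 and Derl3 lower at p under 0.05 before adjustment. Sel1l, the scaffold of the HRD1 ubiquitin ligase complex, had the largest difference of them. It read 1.26, 1.35 and 1.73 in WT, against 2.43, 2.06 and 2.17 in KO, with all KO arrays above all WT arrays. The difference of 0.77 ± 0.19 (1.71-fold, 95% interval 1.25-fold to 2.33-fold) missed the threshold (adjusted p = 0.0816) and passed with scaling to the array median (0.99, adjusted p = 0.0441). Syvn1, the HRD1 ligase itself, read 4.21, 4.20 and 3.86 in WT, against 4.23, 4.23 and 4.32 in KO. These arrays did not overlap, yet the gap was small beside the spread of the WT arrays (0.17 ± 0.16, adjusted p = 0.594). Herpud1, an ER membrane adaptor of that complex, read 4.54, 4.66 and 4.78 in WT, against 4.41, 4.04 and 4.14 in KO. All KO arrays lay below all WT arrays, by -0.46 ± 0.16 (adjusted p = 0.176). Derl3, a derlin found mainly in secretory cells, read -2.99, -3.23 and -3.11 in WT, against -3.48, -3.87 and -3.51 in KO. It too was lower on every KO array, by -0.51 ± 0.17 (adjusted p = 0.156). Edem1, a lectin that hands misfolded glycoproteins to degradation, and Derl1 differed by -0.14 ± 0.17 and -0.12 ± 0.17, and a second Derl1 probe differed by 0.21. Plasma cells express many of these genes strongly, and plasmacytoid dendritic cells are another secretory type. Of the 11 tested markers of plasma and B cells 9 were lower in KO and none passed. The log2 of the list's summed signal was 3.91 to 4.10 in WT and 3.53 to 3.85 in KO. Ms4a1 was not well above background on any array. All 8 markers of plasmacytoid dendritic cells were well above background on every array and lower in KO. The log2 of their summed signal was 7.44 to 7.80 in WT and 7.40 to 7.49 in KO. Klk1 alone of the 8 fell past the threshold (-1.37 ± 0.17, adjusted p = 0.0153). The part of both cell types in the values of Derl3 and Herpud1 was not tested.

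**Figure D3:**
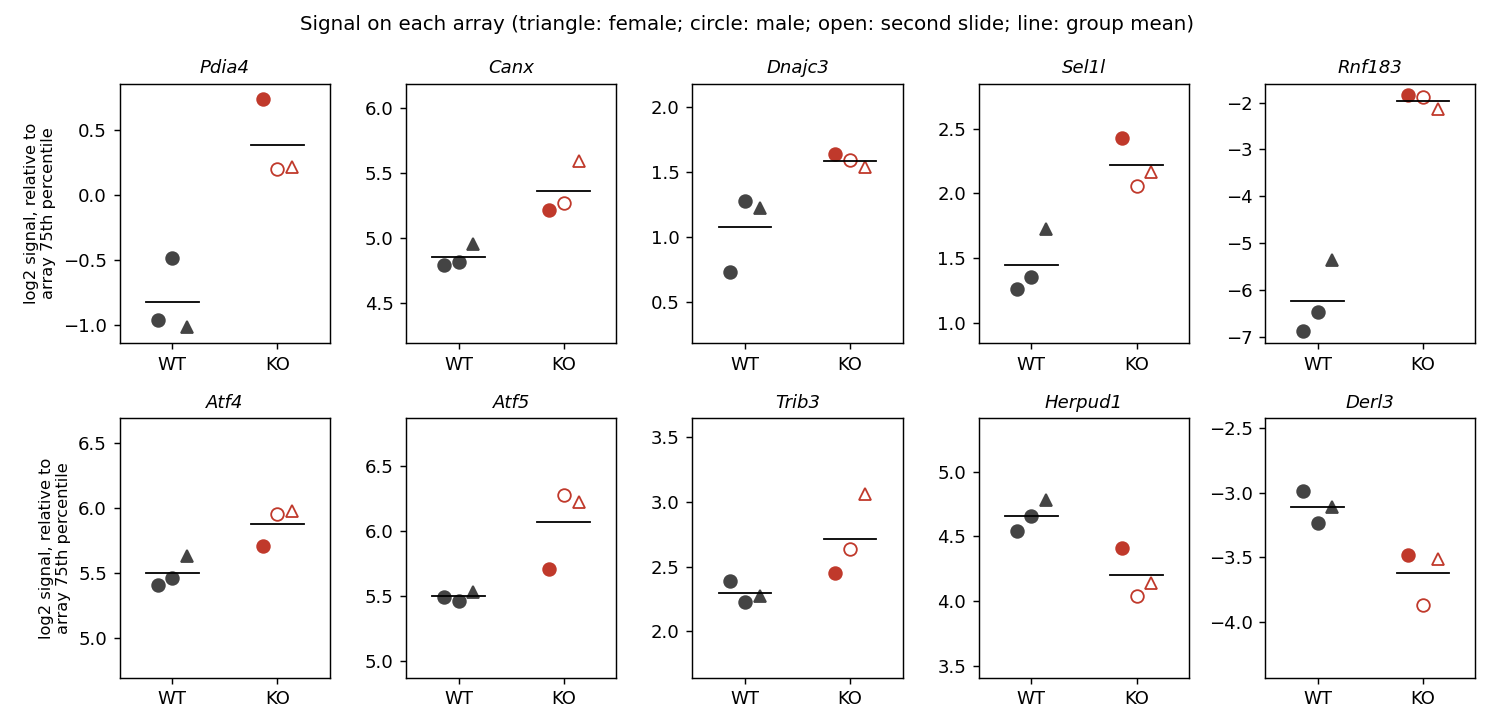
Signal of 10 members on each of the 6 arrays, on the log2 scale relative to the array's 75th percentile (y axis, with its own range per panel), for WT (grey) and KO (red); triangles are female mice, open symbols the second slide, and lines the group means. The 10 genes shown are members whose genotypes do not overlap, so the separation in the panels follows from this choice and is no finding. Of all genes tested, 26.9% likewise had no overlap between KO and WT. Rnf183 was listed for its rise, and its panel spans from -6.88 to -1.85.

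Rnf183, which encodes a membrane-anchored RING-finger ubiquitin ligase reported to act under ER stress, is described without a test because it was listed for its rise. It read -6.88, -6.47 and -5.36 in WT 1, 2 and 3, against -1.85, -1.88 and -2.14 in KO 947, 948 and 949. All KO arrays were well above background, as was 1 of the 3 WT arrays. The difference was 4.28 ± 0.38, and 4.39 on the slide that holds both genotypes. Its size is not fixed, since WT 1 and WT 2 lay below the lowest level well above background on their arrays (-5.91 and -6.16), and it was 2.58 with normexp background correction and quantile normalization. The related ligases Rnf152, Rnf182 and Rnf186 were not tested, being well above background on 2, 2 and 0 of the 6 arrays. No KO array was well above background for Rnf152 or Rnf186.

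Of the 6 annotated genes nearest to Rnf183, 1 rose in KO. Of the 3 genes on each side, Prpf4, Cdc26 and Slc31a1 on one and Wdr31, Bspry and Hdhd3 on the other, Bspry alone passed. It read -3.95, -4.65 and -5.04 in WT, against -2.54, -2.69 and -2.49 in KO, with all KO arrays higher, by 1.98 ± 0.28 (3.93-fold, adjusted p = 0.0209; 2.01 in the slide-blocked fit, adjusted p = 0.105). The call was lost without WT 2 (adjusted p = 0.0789), KO 948 (0.0681) or KO 949 (0.0633). Wdr31, which lies between Bspry and Rnf183, did not pass (-0.21 ± 0.36, adjusted p = 0.786). The other 4 neighbours differed by 0.24 to 0.51, and none passed.

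In the PERK-ATF4 arm none of the 9 members passed, 5 lay above 0 and 4 below it, and Atf4 and Atf5 were at p under 0.05 before adjustment. Atf4, the factor whose translation PERK favours, read 5.40, 5.46 and 5.63 in WT, against 5.71, 5.95 and 5.98 in KO on its main probe. The KO arrays lay above the WT arrays by 0.38 ± 0.15 (adjusted p = 0.223). Its second probe read 1.28, 1.34 and 1.47 in WT, against 1.88, 1.57 and 1.15 in KO, so that there the genotypes overlapped (0.17). Atf5, a related factor translated in the same way, read 5.49, 5.46 and 5.53 in WT, which lie close together, and 5.71, 6.28 and 6.22 in KO. The difference was 0.57 ± 0.19 (1.49-fold, adjusted p = 0.155) and 0.21 in the slide-blocked fit, and it passed without KO 947 (0.75, adjusted p = 0.0404). Trib3, a pseudokinase that feeds back on ATF4, read 2.39, 2.22 and 2.27 in WT, against 2.45, 2.64 and 3.06 in KO (0.42 ± 0.19, adjusted p = 0.279). In Atf4 (main probe), Atf5 and Trib3 the KO array nearest to WT was KO 947 each time. On the second Atf4 probe KO 947 was instead the highest array. Chac1, which degrades glutathione, differed by 0.29 ± 0.21, and KO 947 lay among the WT arrays.

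The remaining 5 genes of the arm differed by -0.25 to 0.0035. Ddit3, which encodes CHOP, read 2.29, 1.84 and 2.48 in WT, against 2.54, 2.13 and 1.93 in KO, with a difference of -0.0029 ± 0.24 (95% interval -0.57 to 0.57). Ppp1r15a, the phosphatase subunit GADD34 that ends the translation block, differed by 0.0035 ± 0.22. It ran from 2.00 to 2.05 in WT but from 1.66 to 2.44 in KO. Asns, the asparagine synthetase and a standard ATF4 target, differed by -0.03 ± 0.14 (0.777-fold to 1.24-fold). Atf3, a stress-induced repressor that also limits macrophage cytokines, differed by -0.17 ± 0.19, and Sesn2, a sestrin induced by ATF4, by -0.25 ± 0.33.

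By branch, the median differences were 0.10 for the 16 tested chaperones and folding enzymes, 0.06 for the 4 sensors with Xbp1, 0.0035 for the 9 genes of the PERK-ATF4 arm and -0.12 for the 7 of degradation with Rnf183. The KO arrays did not share 1 pattern. The median deviation from the WT mean in the chaperone branch was 0.32 in KO 947 but -0.0040 and 0.11 in KO 948 and 949, against -0.10 to 0.10 in WT. In the PERK-ATF4 arm the order was the other way round, with 0.10 in KO 947 and 0.31 and 0.41 in KO 948 and 949, against -0.04 to 0.03 in WT. Since KO 947 is also the KO array on the slide of the WT arrays, the slide and the mouse cannot be told apart here. Scaling to the array median moved the median of all genes from -0.0062 to 0.21, and with it the branch medians to 0.31, 0.27, 0.22 and 0.10, and the degradation branch lay below the median of all genes under both scalings. Without Rnf183 its median was -0.13 in the scaling used throughout. It also changed the calls over all genes from 180 higher and 357 lower to 384 higher and 230 lower.

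**Figure D4:**
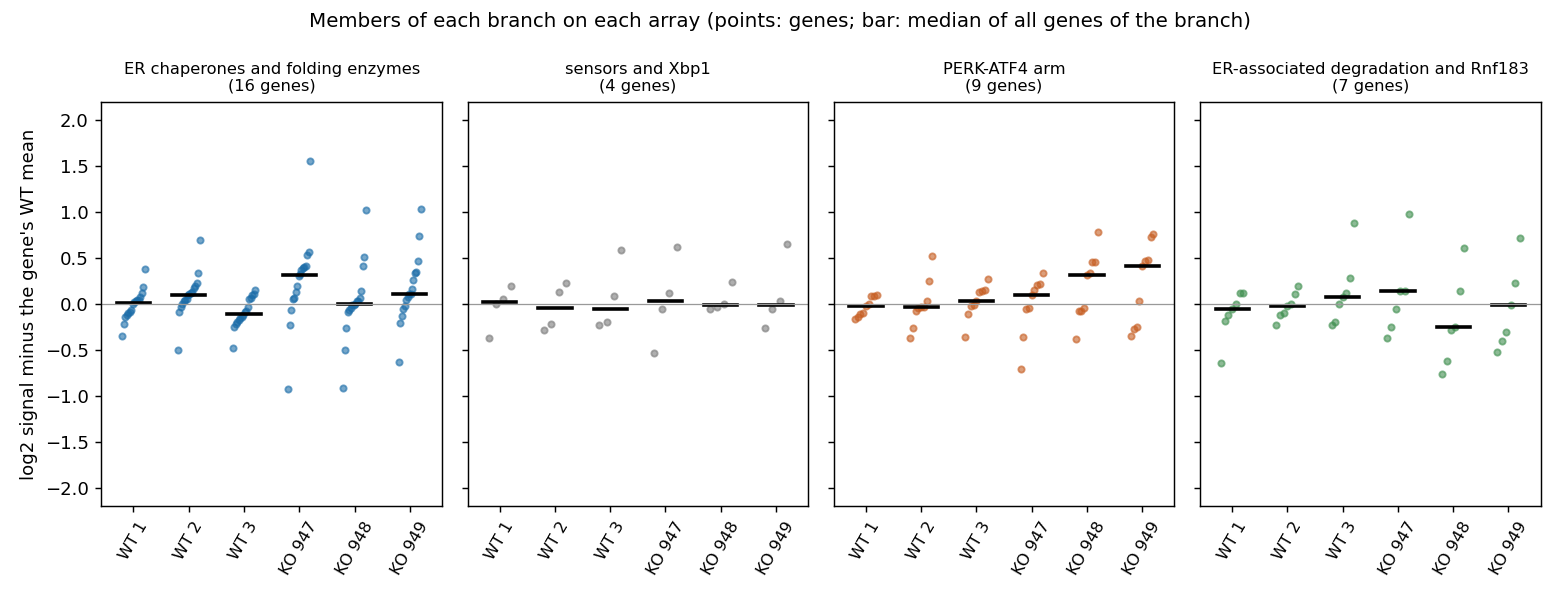
Deviation of each tested member from its WT mean on the log2 scale (y axis) on each array (x axis), by branch; points are genes and bars the median of all genes of the branch, and Rnf183 lies above the axis on the 3 KO arrays. The chaperone median is highest on KO 947 (0.32) and the PERK-ATF4 median on KO 949 (0.41).

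Other genes of the ER and of the integrated stress response, taken from lists written for these pathways, gave 1 call among 216 tested genes. Over all genes tested, 3.41% were called. The gene called in these lists was Gdf15, a secreted stress cytokine induced by ATF4 and CHOP. Gdf15 read 2.19, 2.48 and 2.48 in WT, against 3.22, 3.83 and 3.97 in KO. All 3 KO arrays were above the WT arrays, and the difference was 1.29 ± 0.23 (2.44-fold, adjusted p = 0.0400). The call was lost in the slide-blocked fit (0.84, adjusted p = 0.145) and without any 1 of the arrays other than KO 947 (adjusted p from 0.0875 to 0.135); without KO 947 it was kept (0.0186). Among the other 51 tested genes of the ATF4 list, the glycine transporter gene Slc6a9 had the largest difference (-1.18 ± 0.25, adjusted p = 0.0590), and it passed in the slide-blocked fit (-1.72, adjusted p = 0.0428). Ddit4 passed there too (-1.54, adjusted p = 0.0471), through KO 947, which read 1.49 where the other 5 arrays ran from 2.93 to 3.28.

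The remaining lists held no call. The 38 genes of ER folding and oxidation had a median of 0.05 (24 above 0), with the thioredoxin-like Tmx3 at 0.78 and the prolyl isomerase Fkbp11 at 0.77. The 37 genes of translocation and N-glycosylation had a median of 0.07, led by Tram1 at 0.55 and the oligosaccharyltransferase subunit Stt3b at 0.46. The 28 genes of ER to Golgi transport had a median of 0.08, with the KDEL receptor gene Kdelr3 at -1.52 ± 0.72 (-0.53 in the slide-blocked fit) and the coat subunit Sec24a at 1.07 ± 0.29. The 35 further degradation genes had a median of 0.10, with Sel1l3 at 1.21 ± 0.34 (adjusted p = 0.114) and the peptide N-glycanase Ngly1 at 0.85. The 27 further regulators had a median of 0.0089, with the membrane-bound factor Creb3l1 at 0.76 and the death effector Bak1 at 0.71. In the slide-blocked fit Creb3l1 was at 0.15 and Bak1 at -0.29. The heat shock proteins of cytosol and mitochondria, a set of chaperones outside the ER, likewise had no call among 29 tested, with a median of 0.07 and a range from -3.10 (Hspb1, 0.89 SE, adjusted p = 0.120) to 0.52. Over all 216 ER and stress response genes 18 (8.33%) were higher and 6 (2.78%) lower at p under 0.05 before adjustment, against 8.87% and 11.6% of all genes.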

How the data were processed

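The authors' deposited spot intensities come from Agilent's Feature Extraction software (version 9.1 in the submitters' processing notes, 10.7.3.1 per the file headers). Background subtraction and spatial detrending had been applied to the deposited processed signal, per the file headers, but no scaling between arrays. The authors also deposited a table of log2 values, which have a median of 0 for each probe; it holds 3215 probes, all with genotypes that do not overlap, and 5 members. It served only as an alternative for those 5 genes.

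From the intensities, log2 signal minus the array's log2 75th percentile was taken over non-control spots (59305 spots, 55681 probes). Spots flagged as outliers were left out, and spots of a probe were averaged. Probes were named through transcript accessions in a RefSeq table (GRCm38.p6): 26413 matched and 29268 did not. Probes well above background on fewer than 3 of the 6 arrays were not tested, and the probe with the highest mean stood for its gene. Genotypes were compared with limma 3.58.1 in R 4.3.3 (lmFit, eBayes, two-sided, Benjamini-Hochberg over 15736 genes, threshold 0.05), with no covariate. Alternatives changed the scaling, background correction, filter, probe rule, outlier spots, variance prior, slide, sex and arrays used; normexp was run on median spot and background signals. The fit was also run on simulated data, and the outcome of that run is not given here.

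The members, lists, tests and alternatives were chosen with earlier results of these data known. Values on every array are given for members past the threshold, the 2 largest differences of each branch, the reference gene of each arm and those not well above background throughout. Further members were given in full where their arrays did not overlap or second probes differed, which was decided after their values were seen, as were Ddit4 and P4hb. In each further list up to 4 calls, or otherwise the 2 largest differences, are named. The number of arrays limits the precision. Coordinates of promoters are those of RefSeq, whereas the probes were designed on mm9.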

Additional observations from a re-analysis of the deposited data

How the results depend on the processing

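No paired analysis was possible because the genotypes share no replicate numbers. The count of called members, Rnf183 included although its choice fixed its call, was 2, from 1 to 3 when 1 array was left out, and 1 with quantile normalization, no filter, the slide as a random block, sex as a covariate, male arrays only (Pdia4 lost each time) or a filter on all 6 arrays (which removed Rnf183 and kept Pdia4), and 0 in the fit with a fixed slide block or on the slide with both genotypes alone. The count over all genes was 537, from 77 to 900 with 1 array left out, and 343, 275, 84, 24, 255, 305 and 182 with quantile normalization, no filter, the slide as a fixed block, 1 slide, the random block, sex and male arrays, and 810 with a trended, robust prior. The further pathway genes, heat shock included, gave 1 call, from 0 to 3 with 1 array left out, 0 with quantile normalization, 1 slide, the random block or sex, 2 with scaling to the array median, normexp or the fixed block, 3 with the stricter filter and 4 with the robust prior. Branch medians moved by more than the spread between replicates as follows. Chaperones went from 0.10 to 0.31 when scaled to the array median and 0.32 under the fixed block or on 1 slide (0.05 to 0.15 with 1 array left out). The sensors went from 0.06 to 0.27 with that scaling, 0.012 with the random block and -0.020 on male arrays (-0.018 to 0.063). The PERK-ATF4 arm went from 0.0035 to 0.22 and, on male arrays, 0.24 (0.018 to 0.19). Degradation with Rnf183 went from -0.12 to 0.10, to 0.14 under the fixed block or on 1 slide and to 0.045 with the mean of probes (-0.15 to -0.018). The causes were not tested. Pdia4 kept its direction in 20 of 20 alternatives and passed in 8, the authors' table of separating probes among them, and the difference of Rnf183 ran from 2.58 to 4.81 in the 19 that held it. Scaling to the median and the trended prior brought Sel1l past the threshold. Signal over background limits Dnajb11 in both genotypes, Hyou1 in KO and Rnf183 in WT. The authors' table gave no counts or medians, since it holds only probes that separate the genotypes.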
